A study of Mus musculus with 2 samples.

Results

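Aminoacyl-tRNA synthetases were examined in megakaryocyte-erythroid progenitors (MEP), bone marrow cells that give rise to red cells and to platelet-forming megakaryocytes. Members were the protein-coding genes whose whole symbol is a capital letter followed by ars, alone or with 1, 2, a or b, together with Eprs. The rule found 37 genes among 42462 gene rows that carried a symbol, or among 21474 protein-coding genes. Of these, 18 encode cytosolic enzymes or their subunits, 17 encode mitochondrial enzymes, and Gars and Kars encode the enzyme of both compartments. The rule used no measured value.

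Total RNA depleted of ribosomal RNA was sequenced from MEP of C57BL/6J mice (male, aged 5 to 6 weeks), from 100 ng of RNA per library, with no treatment or mutation named in the labels. There was 1 group of 2 libraries, biological replicates 1 and 2, so no condition could be compared and no test was made. Both libraries carry the same donor entry, and nothing says that they came from separate mice, so the spread between them may be technical. Replicate 1 held 39919884 expected counts (estimated reads per gene) and replicate 2 held 48043010. The 37 genes together took 0.530% and 0.554% of these counts, with 213 to 41893 counts per gene and library. All 8 erythroid markers reached 1 TPM in each library (summed TPM 1365 and 1342). Car1 (723 and 708 TPM) and Car2 (449 and 427) made up most of that sum. Relative to the median protein-coding gene, all 8 were higher in replicate 2, with a median log2 difference of 0.29. Mpo, a granulocyte marker, had 8.53 and 1.64 TPM, unlike the sum of its list, which was higher in replicate 2. Summed TPM in replicates 1 and 2 was 45.8 and 18.35 for 6 megakaryocyte markers, 77.6 and 36.2 for 6 stem and multipotent markers, 59.97 and 120 for 8 granulocyte and monocyte markers, 8.71 and 23.15 for 9 lymphoid and NK markers, and 1.96 and 0.76 for 5 markers of stroma and endothelium. Cd3e, Cd4, Cd8a, Cdh5 and Col1a1 were listed at 0 in both libraries, but other markers of these lists were detected. Of the 9 lymphoid and NK markers, 2 reached 1 TPM in replicate 1 and 4 in replicate 2. Nkg7 had 7.01 and 5.02 TPM, Ccl5 1.49 and 6.97, Gzma 0 and 9.03, and Il7r 0.21 and 1.12. Among the 5 markers of stroma and endothelium, Pdgfrb had 1.71 and 0.45 TPM. Of the 6 stem and multipotent markers, Kit had 43.0 and 27.9 TPM, Cd34 18.3 and 1.44, and Mecom 1.74 and 1.89. The part that these marker differences have in the differences between libraries given for the synthetases was not tested. In such bulk samples, fewer cells of a type and less RNA per cell cannot be told apart.

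Each synthetase joins an amino acid to the tRNAs that read its codons, and so supplies the ribosome with charged tRNA. Cytosolic and mitochondrial translation mostly draw on separate enzymes, both encoded in the nucleus, and the mitochondrial enzymes are imported. The enzymes fall into class I and class II by the fold of the catalytic domain, and in the cytosol part of them sits in a multi-synthetase complex held together by scaffold proteins. Dividing erythroid progenitors make large amounts of protein, and the later hemoglobin synthesis places a further demand on charged tRNA. The transcription factor ATF4, which responds to amino acid shortage and to low heme, is known to raise several cytosolic synthetase genes.

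The start-proximal DNA of 7 members is shown to set the genes that hold the ATF4-type word beside the highest and lowest genes of each compartment, whose levels follow. The sequences come from RefSeq (build GRCm38.p6) and are the 150 bases that end at the base before the annotated RefSeq start, written in the direction of the gene. RefSeq windows were found for 27 of the 37 genes. Cars, Hars, Hars2, Lars, Nars, Pars2, Rars, Vars and Wars are among those with no entry. Capitals mark the words searched on either strand: the ATF4 element TGATGNAA, the E-box CACGTG, the ETS word CCGGAAG and the NRF1 word GCATGCGC. In the printed windows no searched words overlap one another, and those of Yars and Lars2 hold none.

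Aars, chr8:111033692-111033841, plus strand: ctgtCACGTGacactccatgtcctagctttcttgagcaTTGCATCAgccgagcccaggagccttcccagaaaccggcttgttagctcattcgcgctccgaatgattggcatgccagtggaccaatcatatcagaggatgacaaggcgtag

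Gars, chr6:55037851-55038000, plus strand: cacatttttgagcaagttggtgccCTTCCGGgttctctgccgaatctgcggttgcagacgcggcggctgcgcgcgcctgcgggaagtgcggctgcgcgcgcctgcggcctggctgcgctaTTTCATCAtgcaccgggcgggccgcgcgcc

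Tars, chr15:11399659-11399808, minus strand: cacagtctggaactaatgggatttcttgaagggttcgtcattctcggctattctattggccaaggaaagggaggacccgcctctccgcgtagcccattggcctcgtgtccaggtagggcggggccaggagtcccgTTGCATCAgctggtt

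Sars, chr3:108445260-108445409, minus strand: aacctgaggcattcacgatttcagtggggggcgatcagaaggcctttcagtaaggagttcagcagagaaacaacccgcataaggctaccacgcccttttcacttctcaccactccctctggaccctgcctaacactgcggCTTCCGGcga

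Yars, chr4:129189753-129189902, plus strand: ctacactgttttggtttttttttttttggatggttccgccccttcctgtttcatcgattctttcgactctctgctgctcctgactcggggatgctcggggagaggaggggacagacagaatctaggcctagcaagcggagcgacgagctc

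Lars2, chr9:123366777-123366926, plus strand: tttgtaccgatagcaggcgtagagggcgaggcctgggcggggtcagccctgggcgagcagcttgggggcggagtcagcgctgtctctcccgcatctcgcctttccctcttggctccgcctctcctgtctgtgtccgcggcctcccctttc

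Wars2, chr3:99140940-99141089, plus strand: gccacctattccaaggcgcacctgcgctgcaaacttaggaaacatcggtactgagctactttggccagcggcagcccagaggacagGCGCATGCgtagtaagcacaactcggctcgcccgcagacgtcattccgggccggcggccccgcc

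Over the whole 250 bases upstream, TGATGNAA occurred in 3 of the 27 genes, Aars, Gars and Tars, and in 3.45% of 32851 RefSeq windows of the same length. It began 112, 30 and 15 bases before the start of Aars, Gars and Tars. All 3 charge cytosolic tRNA (Gars also the mitochondrial one), with alanine, glycine and threonine. CACGTG, a word bound by MYC and related factors, occurred in Aars, Farsb and Iars (all windows, 6.02%). CCGGAAG, the word of the ETS family, occurred in 7 genes, Cars2, Farsa, Gars, Mars, Mars2, Sars and Sars2 (all windows, 6.91%), so that both the cytosolic and the mitochondrial enzymes for methionine and for serine held it. GCATGCGC, the word of NRF1, a regulator of nuclear genes for mitochondrial proteins, occurred in Rars2, Vars2 and Wars2 (all windows, 2.26%), which are all mitochondrial. ATF4-type and E-box words were found in no mitochondrial gene with a window, and the NRF1 word in no cytosolic one. Each of these words was held by only 3 genes and is rare over all windows (3.45%, 6.02% and 2.26%). No difference between compartments can therefore be read from this. These matches describe letters, not binding sites, and a gene without a match may hold the word elsewhere.

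Nearly the whole family was present. Counting only genes that reached 1 TPM (transcript abundance per length, scaled to a fixed total) in replicate 1 and also in replicate 2, 36 of the 37 were present, against 39.4% of all protein-coding genes. Nuclear protein-coding genes held 25.5% of all TPM in replicate 1 and 20.6% in replicate 2, so TPM levels and this limit depend on the other rows too. The exception was Wars2, the mitochondrial tryptophan enzyme, at 1.76 TPM in replicate 1 and 0.72 in replicate 2, from 603 and 405 counts. The mean over libraries was at least 10 TPM for 26 genes, against 3630 of 21474 protein-coding genes. From Sars at 117 TPM to Wars2 at 1.24 TPM the levels spanned 94.0-fold, and their order was much the same in both libraries (Spearman's rho 0.98 across 37 genes, which are not independent). The family's median was 17.8 TPM in replicate 1 and 15.9 in replicate 2, against a median of 7.40 TPM for the 9046 protein-coding genes whose mean reached 1 TPM.

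By the TPM of all its transcripts, the most abundant cytosolic synthetase was Sars, the serine enzyme (ENSMUSG00000068739.9, chr3:108424865-108445209, minus strand, all gene positions from GENCODE M21 on mm10), at 121 and 112 TPM in replicates 1 and 2, a mean of 117 ± 6.48 (SD, n = 2, as for every ± in what follows). Dars, the aspartate enzyme (ENSMUSG00000026356.11, chr1:128363707-128417368, minus strand), followed at 94.0 and 65.8 TPM (79.9 ± 19.9). Eprs, a single protein that charges both glutamate and proline tRNA, stood at 85.1 and 68.8 TPM (76.96 ± 11.5) and held the most reads of the family, 35795 and 41893 counts. The range of Sars lay above that of Dars, while the ranges of Dars and Eprs overlapped. Vars, the valine enzyme, which is known to associate with elongation factor 1, had 60.2 and 73.4 TPM (66.8 ± 9.37). Nars, the asparagine enzyme, had 63.5 and 60.2 TPM (61.9 ± 2.33), and Mars, the methionine enzyme, 70.3 and 45.65 TPM (58.0 ± 17.4). These 3 overlapped each other, and Mars had the widest spread of them. The levels of Sars, Vars and Mars were carried mostly by short transcripts, and with full-length coding transcripts alone Dars was the highest, at 77.6 TPM.

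Qars, the glutamine enzyme, followed at 50.9 and 54.7 TPM (52.8 ± 2.64), and Farsa and Farsb, the catalytic and the other subunit of the phenylalanine enzyme, at 36.7 ± 5.98 and 26.4 ± 4.49. The lower of both subunits, Farsb, stood at 29.5 and 23.2 TPM and Farsa at 41.0 and 32.5, so Farsa was higher in each library. Hars (histidine) had 34.45 ± 1.87 TPM, Rars (arginine) 33.0 ± 3.13, Tars (threonine) 28.9 ± 0.926, Lars (leucine) 27.35 ± 5.85 and Iars (isoleucine) 23.3 ± 1.12. The lowest cytosolic genes were Aars (alanine) at 16.0 ± 0.113, Wars (tryptophan) at 15.2 ± 1.04, Cars (cysteine) at 13.4 ± 3.41 and Yars (tyrosine) at 11.1 ± 1.81. Yars had 12.4 TPM in replicate 1 and 9.80 in replicate 2, and overlapped Cars at 15.8 and 11.0. The cytosolic genes thus spanned 10.5-fold, with a median of 34.2 TPM in replicate 1 and 31.7 in replicate 2.

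The enzymes shared by both compartments were among the abundant ones. Kars, the lysine enzyme (ENSMUSG00000031948.9, chr8:111993443-112011323, minus strand), had 58.5 and 50.4 TPM (54.4 ± 5.74). Gars, the glycine enzyme (ENSMUSG00000029777.9, chr6:55038007-55079500, plus strand), had 45.9 and 38.5 TPM (42.2 ± 5.28). Deposited TPM was higher in replicate 1 for both, but relative to the median protein-coding gene replicate 2 was slightly higher, by 0.06 for Kars and 0.02 for Gars on the log2 scale. Kars makes its compartment forms by alternative splicing. The transcript Kars-201, with 595 coding codons, held 85.6% and 87.9% of the gene's TPM, and Kars-202, with 624, held 12.0% and 12.1%. The longer reading frame is the mitochondrial form, as background. Gars has 1 transcript in the tables, whose 729 codons include the mitochondrial targeting part, so its forms could not be separated.

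The 17 mitochondrial genes had a median of 4.48 TPM in replicate 1 and 4.57 in replicate 2, and spanned 19.2-fold. Lars2, the leucine enzyme (ENSMUSG00000035202.7, chr9:123366927-123462666, plus strand), was the highest, with 30.95 TPM in replicate 1 and 16.7 in replicate 2 (23.8 ± 10.1). Iars2 (isoleucine) had 21.6 and 20.7 TPM (21.1 ± 0.665), and Rars2 (arginine) 17.8 and 11.55 TPM (14.7 ± 4.41). The range of Lars2 enclosed that of Iars2, so these could not be ordered. Yars2 (tyrosine) followed at 13.8 ± 0.269 TPM and Tars2 (threonine) at 11.15 ± 0.976. These 5 were the mitochondrial genes whose mean passed that of Yars, the lowest cytosolic gene.

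Fars2 (phenylalanine) had 7.09 ± 0.467 TPM, Hars2 (histidine) 7.06 ± 1.07 and Cars2 (cysteine) 4.53 ± 0.0636. A further 8 had a mean TPM between 1.24 and 3.17. In falling order they were Vars2 (valine), Nars2 (asparagine), Mars2 (methionine), Sars2 (serine), Aars2 (alanine), Ears2 (glutamate), Pars2 (proline) and Wars2 (ENSMUSG00000004233.10, chr3:99141068-99239186, plus strand). Pars2 rested on the fewest reads, 213 and 337 counts for 1.71 and 1.28 TPM. In deposited TPM Cars2 was nearly alike in both libraries, at 4.48 and 4.57, while Vars2 at 2.21 and 4.12 was not. Relative to the median protein-coding gene, however, Cars2 was higher in replicate 2, by 0.30 on the log2 scale, and Vars2 by 0.95. Every SD given is of deposited TPM, so a small SD need not mean a small difference on that relative scale.

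Ranked by mean TPM over all 37, neighbours in the order had overlapping ranges in 25 of 36 cases. The other 11 did not overlap, among them Sars above Dars, Qars above Gars, Rars above Tars, Iars above Iars2, Iars2 above Aars, Aars above Wars, Hars2 above Cars2, Cars2 above Vars2, Aars2 above Ears2 and Ears2 above Pars2. These ranges are of deposited TPM, so they include the difference in scale between the libraries. An overlap therefore need not mean that the order changed. Gars, for example, stood above Farsa in each library, at 45.9 against 41.0 TPM in replicate 1 and 38.5 against 32.5 in replicate 2. By mean, 13 cytosolic genes stood above every mitochondrial gene, and 11 did so in both libraries.

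The gap between compartments was wider than the difference between libraries. On the scale log2(TPM + 1) the cytosolic median exceeded the mitochondrial one by 2.65, with 2.68 in replicate 1 and 2.55 in replicate 2. Restricted to members whose mean reached 5 TPM it was 1.37, since that filter removes low mitochondrial genes. For comparison, the median of 88 cytosolic ribosomal protein genes was 485 TPM and that of 77 mitochondrial ribosomal protein genes 17.3 TPM, so the gap between compartments was also present among ribosomal proteins, and the median synthetase of each compartment lay below the median of its ribosomal proteins. The median of 59 translation initiation and elongation factor genes was 42.6 TPM.

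Matched by amino acid, the cytosolic enzyme was the higher in both libraries for 16 of 17 amino acids (Eprs standing for glutamate and proline, and the lower subunit for phenylalanine). The ratio within a library does not depend on library scaling. The widest ratios were for proline (49.8-fold in replicate 1, 53.8 in replicate 2), serine (49.8 and 34.1) and glutamate (45.0 and 35.8). Valine followed at 27.2-fold and 17.8, asparagine at 18.7 and 23.6, and methionine at 21.5 and 18.6. These 6 were all at least 17.8-fold in each library, although for serine, valine and methionine short transcripts raised the cytosolic level. Over all transcripts, tryptophan had the widest disagreement between libraries, 8.20-fold and 22.1, with Wars2 at 603 and 405 counts. With full-length coding transcripts alone it was 10.9-fold in replicate 1 and 14.1 in replicate 2.

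Alanine (6.48 and 7.30), histidine (5.26 and 4.57) and phenylalanine (3.98 and 3.43) stood in the middle. Cysteine (3.53-fold and 2.41), threonine (2.39 and 2.83) and arginine (1.98 and 2.67) were lower. For leucine the enzymes were close, with Lars over Lars2 at 1.02-fold and 1.39, and likewise for isoleucine, with Iars over Iars2 at 1.12 and 1.09. The exception was tyrosine, for which Yars, the cytosolic gene, had 12.4 and 9.80 TPM and Yars2 13.65 and 14.0, a ratio of 0.905 and 0.699. Over all transcripts, only for leucine, isoleucine and tyrosine was the ratio under 1.5-fold in both directions in each library. With full-length coding transcripts alone isoleucine left this group, at 2.05-fold in replicate 1 and 1.74 in replicate 2.

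**Figure D1:**
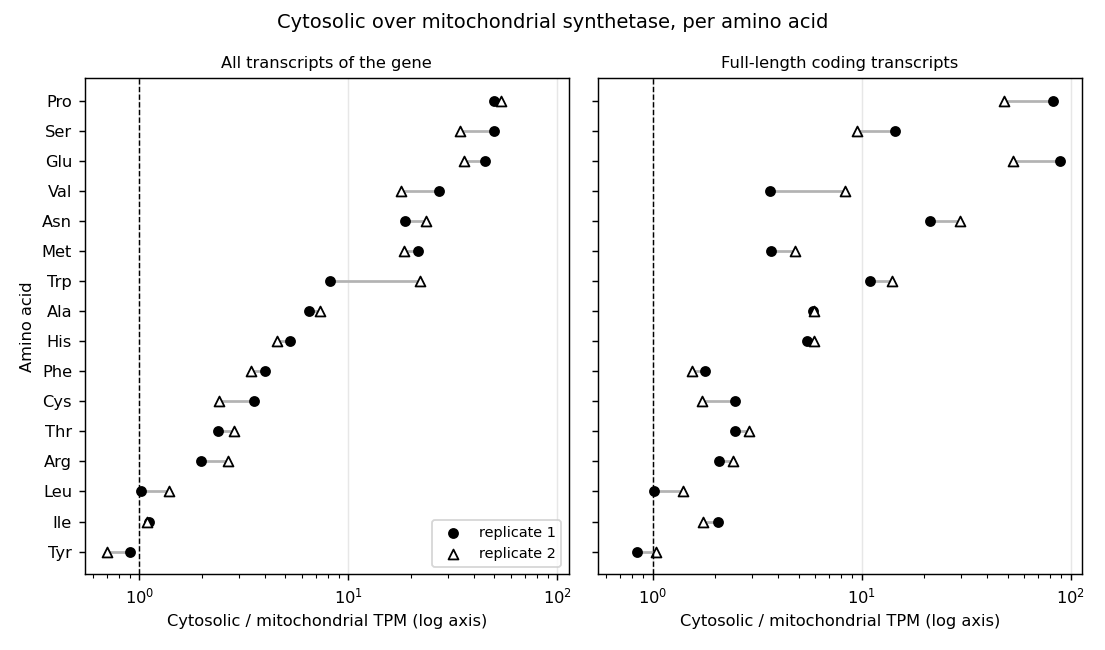
Ratio of cytosolic to mitochondrial TPM for 16 amino acids on a log axis, from all transcripts of each gene (left) and from full-length coding transcripts alone (right), with replicate 1 as filled circles and replicate 2 as open triangles. All amino acids shown but tyrosine lie right of the dashed line at equal levels in both libraries of both panels.

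A gene's TPM sums all its annotated transcripts, and in several synthetase genes short or non-coding ones held most of it. Full-length coding here means a protein-coding transcript whose coding sequence is at least 80% of the gene's longest. Such transcripts held under 50% of TPM in both libraries for 5 members, among them Sars, Vars, Mars and Farsb, against 14.6% of the 9046 protein-coding genes. The family was thus close to the general share, and this is no particular trait of it. Full-length coding transcripts held at least 90% in both libraries for 15 members, a count given without a share over all protein-coding genes. Sars-204, a fragment of 637 bases with 186 codons, held 71.0% and 72.1% of the TPM of Sars, while Sars-202, with 536 codons, held 24.2% and 20.7%. In Vars, the retained-intron fragment Vars-204 of 475 bases held 68.8% and 38.5%, and the complete Vars-201 of 1263 codons 13.4% and 14.4%. In Mars, the retained-intron fragment Mars-204 of 467 bases held 46.3% and 41.1%, and the complete Mars-201 of 902 codons 17.2% and 26.0%. A short transcript needs few reads for a high TPM: Vars-204 took 956 and 952 counts and Vars-201 2891 and 5573.

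With full-length coding transcripts alone, the order at the top changed. Dars led at 77.6 ± 17.0 TPM, then Eprs at 69.4 ± 11.3, Nars at 61.9 ± 2.33, Kars at 54.4 ± 5.75 and Gars at 42.2 ± 5.28. Sars was at rank 7 with 33.1 ± 2.67 TPM, Mars was at rank 18 with 12.0 ± 0.134 and Vars at rank 25 with 9.35 ± 1.77. The cytosolic median became 24.65 TPM and the mitochondrial one 2.87, and the difference of medians was 2.73 on the log2(TPM + 1) scale. The cytosolic enzyme remained the higher in both libraries for 16 amino acids, and the median ratio over all 17, tyrosine included, was 5.53-fold. The ratio was then 11.7 for serine, 5.53 for valine and 4.22 for methionine (mean of both libraries on a log scale). By the same mean it was 1.89 for isoleucine and 1.66 for phenylalanine. Tyrosine was split, at 0.840 in replicate 1 and 1.04 in replicate 2.

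**Figure D2:**
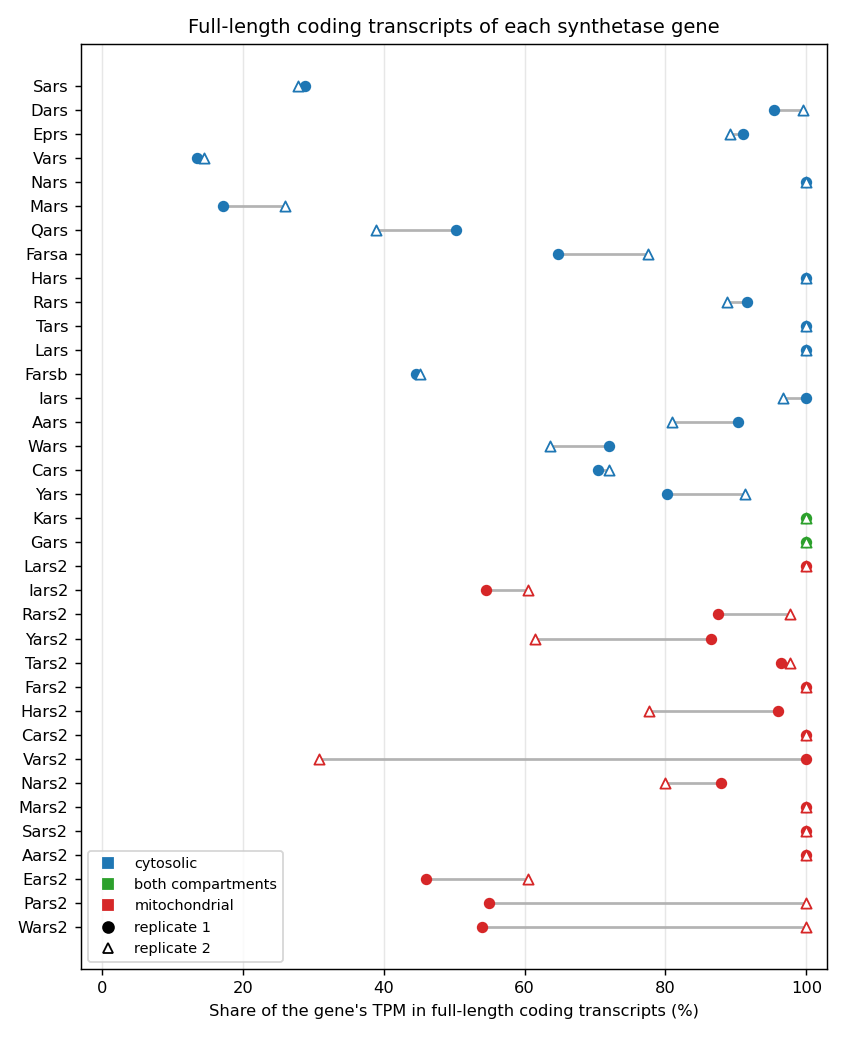
Percent of TPM in full-length coding transcripts for 36 synthetase genes, with replicate 1 as filled circles, replicate 2 as open triangles and colour for the compartment. Sars, Vars, Mars and Farsb lie under 50% in both libraries, and Vars2, Pars2 and Wars2 lie far apart between them.

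Of 27 members with 2 or more transcripts, 23 were led by the same transcript in each library, a count read against 70.9% of 6790 protein-coding genes of that kind. By counts in place of TPM it was 25. The leading transcript differed for Ears2, Farsb, Pars2 and Vars2. In Vars2 the coding Vars2-201 held 100% of TPM in replicate 1 and 30.8% in replicate 2, where the retained-intron transcript Vars2-206 held 69.2%. In Pars2 the non-coding Pars2-204 led in replicate 1 with 45.0% and Pars2-201 held all of replicate 2, with 337 counts. Such shares are estimates from short reads.

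Part of the family shares sequence or position with other genes, which touches how reads can be assigned. Of all 31-base words in its transcripts, Iars2 shared 23.6% with other genes, nearly all with Rab3gap2, which overlaps it on the other strand. Aars shared 14.4%, mostly with the overlapping Exosc6, and Iars 14.7%, mostly with the pseudogene Gm4849, at 0.03 and 0.01 TPM. For 8 members, Aars2, Gars, Lars, Nars, Rars, Rars2, Wars and Yars2, no word was shared, and for Lars2 the share was 0.923%. The row of Qars includes a transcript, Qrich1-208, that GENCODE M21 names for its neighbour Qrich1, with 9.54% and 3.64% of its TPM. Hars and Hars2 lie head to head on opposite strands and overlap by 198 bases. In all, 20 members overlap another annotated gene and 11 a protein-coding one, among them Mars, which overlaps the stress gene Ddit3 on the opposite strand. No share over all genes is given for these counts, so they are not read as a trait of the family. No source used here says whether counting used strand, so reads in these overlaps cannot be told apart.

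Most synthetase genes differed by less than 1.5-fold between the libraries. TPM of the median protein-coding gene was lower in replicate 2 by a log2 difference of -0.27, so differences are given as log2((TPM of replicate 2 + 1)/(TPM of replicate 1 + 1)) minus that median. On that scale the family's median was 0.14, with 24 genes above 0 and 13 below; it was 0.12 for cytosolic and 0.16 for mitochondrial genes. The medians for ribosomal proteins, mitochondrial ribosomal proteins and translation factors were -0.08, 0.11 and 0.01. Past 1.5-fold higher in replicate 2 lay 2 members, against 10.7% of the 9046 protein-coding genes, and past 1.5-fold lower lay 0, against 10.5%. Those higher were Vars2 (0.95) and Sars2 (0.59), the mitochondrial valine and serine enzymes. Just inside the limit were Vars at 0.56, Hars2 at 0.55 and, on the lower side, Lars2 at -0.58.

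Counts scaled by TMM (a scaling that takes most genes as unchanged), with the median protein-coding gene again set to 0, gave much the same picture with exceptions. They put 3 members past 1.5-fold higher, Vars2 (1.06), Sars2 (0.75) and Vars (0.68), against 11.2% of protein-coding genes, and 1 lower, Wars2 (-0.81, and -0.41 by TPM), against 12.1%. Sars2 rested on 375 and 743 counts and 1 transcript. Lars2 was at -0.57 by counts and -0.58 by TPM, from 10336 and 8190 counts, also with 1 transcript. For Mars the scales had opposite signs, -0.34 by TPM and 0.28 by counts. Its effective length, the length over transcripts by which TPM is scaled, was 773 bases in replicate 1 and 1151 in replicate 2, and its full-length transcript had 12.1 and 11.9 TPM. Pars2 was at 0.02 by TPM and 0.43 by counts, with an effective length of 1367 and 1965 bases. The difference for Vars2 was carried by the retained-intron transcript. Its full-length coding transcript had 2.21 and 1.27 TPM, a log2 difference of -0.25 when centred anew for full-length coding transcripts. For Wars2, the transcript Wars2-203, annotated for nonsense-mediated decay, had 238 counts in replicate 1 and 0.21 in replicate 2. The full-length coding Wars2-201 had 365 and 405 counts, and Wars2 was at 0.07 on that full-length scale.

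**Figure D3:**
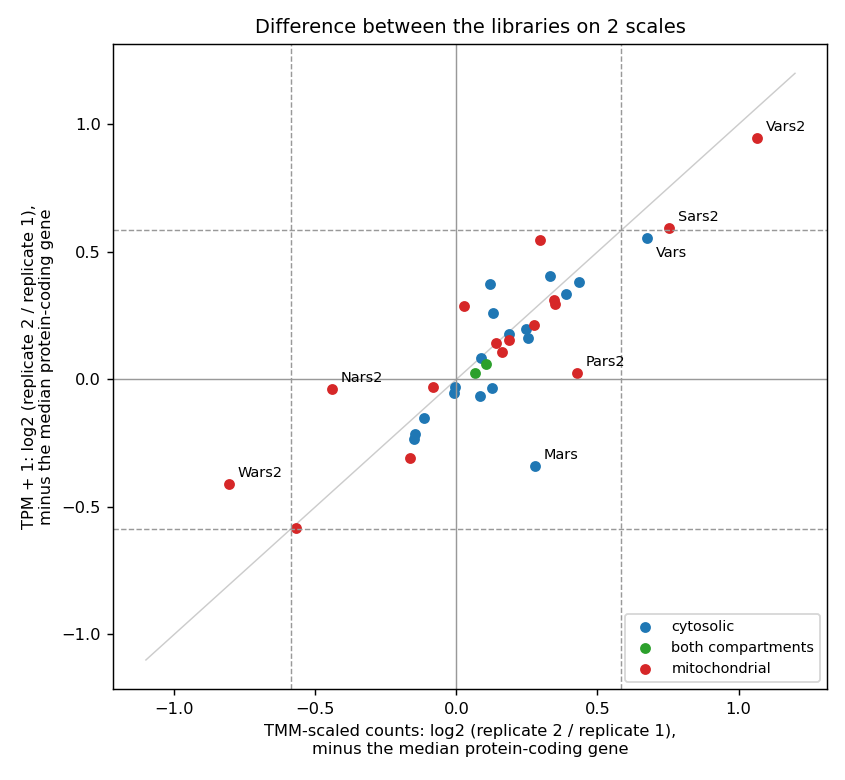
Difference of replicate 2 from replicate 1 for 36 synthetase genes, by TMM-scaled counts (horizontal) and by TPM (vertical), both as log2 minus the median protein-coding gene, with dashed lines at 1.5-fold. Most genes lie near the diagonal; Mars, Pars2, Nars2 and Wars2 lie off it, and Vars2 and Sars2 pass 1.5-fold on both scales.

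The deposited TPM intervals, whose level is not given, did not overlap between the libraries for 28 of 37 members after division by the median ratio, against 70.9% of protein-coding genes. Replicate 2 was higher in 22, against 35.5%, and lower in 6, against 35.4%. The lower ones were Dars, Mars, Lars, Lars2, Rars2 and Wars2. These intervals describe each library's own estimate and do not include the spread between libraries.

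The 8 members of the multi-synthetase complex, Dars, Eprs, Iars, Kars, Lars, Mars, Qars and Rars, had a median of 53.6 TPM, against 31.7 for the other 12 genes that serve the cytosol. With full-length coding transcripts the medians were 28.6 and 19.8. Their ranges overlapped, with Iars lowest in the complex at 23.3 and Sars highest outside it at 117. The 3 scaffold genes lay within the range of the enzymes they hold. Aimp1 had 45.3 and 29.6 TPM, Aimp2 25.6 and 28.4, and Eef1e1 49.8 and 47.8. Among cytosolic genes of a single class, 9 of class I had a median of 27.35 TPM and 8 of class II 35.6. With full-length coding transcripts these medians were 11.97 and 30.995.

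Mitochondria lack a tRNA synthetase for glutamine of their own and make charged glutamine tRNA by a transamidase, from tRNA charged with glutamate. Its subunits were at the level of the low mitochondrial synthetases, with Gatb at 3.05 and 1.81 TPM, Gatc at 3.63 and 4.01 and Qrsl1 at 3.45 and 2.00, beside 1.89 and 1.92 for Ears2, which supplies the glutamate tRNA. Mtfmt, which formylates the initiator methionine tRNA charged by Mars2, had 3.97 and 3.34 TPM. All 4 thus lay under 5 TPM. The factors that deliver charged tRNA to the mitochondrial ribosome or act with it were higher, with Tufm at 24.6 and 27.5, Tsfm at 14.8 and 13.65, Gfm1 at 25.1 and 37.45 and Gfm2 at 10.5 and 8.61 TPM.

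In the cytosol the delivery factor Eef1a1, which carries charged tRNA to the ribosome, had 4961 and 3177 TPM, and its exchange factors Eef1b2 1107 and 731, Eef1d 244 and 169 and Eef1g 236 and 225. The lowest of these 4 was above every synthetase. The selenocysteine pathway starts from serine tRNA charged by Sars. Of its genes, Pstk, which phosphorylates that serine, had 2.34 and 6.06 TPM, Sepsecs 3.98 and 3.66, Sephs2, the selenium donor enzyme, 28.4 and 27.9, Secisbp2 8.51 and 6.37, and Eefsec 2.45 and 2.34. Pstk had the largest difference among these 5, 1.35 on the centred log2 scale, and the others lay within 1.5-fold.

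Editing factors and paralogs outside the symbol rule had levels within the range of the cytosolic enzymes in 4 of 5 cases. Aarsd1, which clears mischarged alanine tRNA, had 21.9 and 18.9 TPM, Dtd1, which removes D-amino acids, 24.35 and 20.45, Prorsd1 20.99 and 16.6, and Tarsl2, a cytosolic threonine enzyme related to Tars, 15.5 and 15.7. Dtd2 was lower, at 7.99 and 3.31 TPM. Tarsl2 thus stood below Tars (28.2 and 29.55 TPM) in both libraries. Of 13 genes for tRNA maturation and export with a row, 12 reached 1 TPM in each library. The highest were Ssb, which binds new tRNA transcripts (248 and 166 TPM), Nsun2, a tRNA methyltransferase (86.6 and 72.1), Rtcb, the tRNA ligase (46.7 and 38.3), and Trnt1, which adds the terminal CCA (34.25 and 23.6).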

How the data were processed

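Total RNA-seq of 2 MEP libraries was read as deposited. Per the file headers, the authors' tables give an expected count and a TPM (scaled over all rows) per gene and transcript, bounds of a TPM interval, effective lengths, and a transcript's percent of its gene's TPM. The deposited text files name build mm10 and GENCODE M4. Which program made the estimates was not given in the sources used here. Replicates were not pooled, and no column of another sample was used. Symbols, transcript types and coordinates came from GENCODE M21 (same assembly), for 42462 of 43346 Ensembl rows, with IDs matched without version. Percents of full-length coding transcripts were computed from the deposited transcript TPM.

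Medians, counts past a size and ratios within a library were computed with Python 3.11.15, numpy 2.4.6 and pandas 2.3.3 (figures with matplotlib 3.10.9). A pseudocount of 1 TPM was added before log2, and genes under a mean of 1 TPM were left out of differences. Expected counts were rounded, and genes under 10 counts left out, for TMM factors (edgeR 4.0.16) and size factors (DESeq2 1.42.0, R 4.3.3). With 1 library on each side no test was made. The steps were tested on simulated data.

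Of the 37 members, 1 is not reported here by name, though it is counted in the totals. The text names all others and all genes of the partner lists. Of the tRNA maturation and amino acid response lists it names the 4 highest genes, and Trib3 and Chac1 besides. Marker lists are given as sums with only some of their genes named. Members, lists and markers were chosen with earlier results of these data known. Alternatives covered scaling, pseudocount, filters, posterior mean TPM and leaving out a library. Full-length coding transcripts and centred TMM were added after seeing the data. The number of libraries limits the precision of every mean, and counting error is a further part for genes with few counts.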

Additional observations from a re-analysis of the deposited data

How the results depend on the processing

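Without centring on the median protein-coding gene, median differences between libraries reversed, to -0.13 for all members, -0.15 for cytosolic and -0.12 for mitochondrial genes, by construction, since the median protein-coding gene was lower in replicate 2. Under the other alternatives run these medians stayed above 0. The count of members past 1.5-fold higher (2) became 1 without centring, 4 with TPM rescaled over the nuclear protein-coding genes, 4 with a pseudocount of 0.1, 0 among members whose mean reached 10 TPM, where Vars2 and Sars2 are not tested, and 1 with full-length coding transcripts. The count lower (0) became 3 without centring, 1 each with rescaled TPM, TMM counts, centred TMM counts, DESeq2 size factors and a pseudocount of 0.1, and 2 with full-length coding transcripts. With these transcripts Vars2 reversed to -0.25, since its retained-intron transcript is left out, and 9 of 37 members changed sign. Leaving out either library, the cytosolic median was 31.7 to 34.2 TPM and the difference of compartment medians 2.55 to 2.68. Rescaling over the nuclear protein-coding genes, which held 25.5% and 20.6% of TPM, gave medians of 148 and 19.9 TPM and a difference of 2.83. A pseudocount of 0.1 gave a difference of 2.87, and members whose mean reached 5 TPM gave 1.37. Full-length coding transcripts gave medians of 24.65 and 2.87 TPM. A leading transcript at 60% or more in both libraries was found for 15 members instead of 23. Members detected fell to 28 at 5 TPM. For these stricter limits no share over all protein-coding genes is given. Causes beyond those named were not tested. No paired analysis was possible because there is 1 group. With 2 libraries of 1 donor entry, no error between mice can be given, and the lowest genes rest on as few as 213 counts.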

Other observations

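Of 20 genes of the amino acid response, the program that ATF4 drives and that includes cytosolic synthetase genes, 12 reached 1 TPM in each library. The highest were Atf4 itself, at 76.2 and 65.9 TPM in replicates 1 and 2, Phgdh, which starts serine synthesis, at 73.0 and 47.9, Asns, the asparagine synthetase, at 46.4 and 64.45, and Ddit3 at 37.8 and 18.6. Asns was the higher in replicate 2, and Ddit3 the lower, by 0.74 and -0.71 on the centred log2 scale. Of the 13 listed genes with a mean of at least 1 TPM, 9 were above 0 on that scale and 4 below. Their median was 0.30. Past 1.5-fold lay 5 higher and 1 lower, against 10.7% and 10.5% of protein-coding genes. Trib3 and Chac1, 2 targets linked to strong stress, were listed at 0 counts in both libraries. Aars, Gars and Tars, the synthetase genes with TGATGNAA upstream, were at 0.26, 0.02 and 0.34 on the same scale, which lies within 1.5-fold.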
